A study of Mus musculus with 31 samples.

Results

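Transcripts of 5 genes were followed in the mouse mammary gland across an allele series of the transcription factors STAT5A and STAT5B. They are Tnfsf11 (the ligand RANKL), Tnfrsf11a (its receptor RANK), Tnfrsf11b (the decoy receptor osteoprotegerin), Calca and Cited1. They were chosen by gene symbol, 5 of the 22609 genes in the tables, and all 5 passed the filter on low values at both stages. Poly(A) RNA of mammary tissue without lymph nodes was sequenced at day 6 of pregnancy and at parturition, within 12 hours of delivery. The labels list 31 samples, 18 at day 6 (3 for each genotype) and 13 at parturition (3 for the genotype B and 2 for the rest). Deposited values are FPKM, which relate fragments to transcript length and to all mapped fragments, in 1 column for each genotype and stage. Each column is the authors' mean, so no value below has an SD or a number of replicates, and no difference has a test.

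All mice were of the mixed strain 129SV::FVB/N::C57BL/6, and their ages are not given in the sources used here. The 6 genotypes were compared and are named by their functional Stat5 alleles. The genotype Null is Stat5abfl/fl;MMTV-Cre, in which the Cre of transgenic line A is driven by the mouse mammary tumour virus promoter. Deletion there is limited to cells in which that promoter is active, chiefly epithelium, and stromal cells keep Stat5. The genotype B (Stat5abnull/Stat5a-) keeps 1 Stat5b allele, and A (Stat5abnull/Stat5b-) keeps 1 Stat5a allele. BB (Stat5a-/-) keeps 2 Stat5b alleles and AB (Stat5ab+/null) keeps 1 allele of each gene. AABB is wild type with 4 alleles. In B, A, BB and AB the alleles were missing from every cell of the animal, so Null differs from them in where Stat5 was lost as well as in allele number.

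RANKL is a membrane-bound or shed cytokine of the TNF superfamily that binds RANK and activates NF-κB. Osteoprotegerin is a secreted relative of RANK that binds RANKL and keeps it from its receptor. In the mammary gland, progesterone induces RANKL in luminal cells that carry the progesterone receptor, and RANKL acts on neighbouring receptor-negative cells to make them divide and form alveoli. Prolactin, which signals through its receptor to STAT5, also bears on RANKL in this tissue. Calca encodes the peptide hormone calcitonin and, by alternative splicing, the neuropeptide CGRP, and a value for the gene does not separate them. Calcitonin transcript in the gland is a known progesterone response of pregnancy. Cited1 is a transcriptional coactivator of hormone-receptor-positive luminal cells that works with oestrogen receptor and AP-2 factors.

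Levels are FPKM scaled within a stage, with factors of 0.916 to 1.07 at day 6 and 0.794 to 1.13 at parturition. Columns are compared by the log2 ratio of scaled FPKM + 1, a scale that understates differences of weakly expressed genes. A gene was called higher or lower at 2-fold on that scale. The depth is unknown. The lowest Stat5a level was in the knockout BB, at 3.67 against 33.6 in wild type at day 6 and 4.30 against 70.8 at parturition. The columns labelled B still held Stat5a transcript at 12.5 and 8.60, and those labelled A held Stat5b at 10.6 and 10.3, so directions given for them are those of the columns so labelled. Null held Stat5a at 13.6 and Stat5b at 9.04 at day 6, and 6.96 and 7.65 at parturition. Its Stat5a at day 6 was above that of B and near the 13.4 of AB, while its Stat5b was the lowest of the 6 columns at both stages, and directions for it too are those of the column so labelled. Epithelial keratin genes were present in every column, with Krt8 at 165 to 312 at day 6 and 218 to 599 at parturition. All 9 luminal markers were at 1 FPKM or more in all columns.

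Promoter sequences are shown for Tnfsf11, Calca and Cited1, whose levels followed one another most closely in the columns below. Each is the stretch of 250 bases before the transcription start in the RefSeq promoter table, on the minus strand of GRCm38.p6, which is not the mm9 build used for the deposited values. The intervals are chr14:78308044-78308293 for Tnfsf11, chr7:114636358-114636607 for Calca, and chrX:102252182-102252431 for the first of 3 listed starts of Cited1. Capitals mark TATAA on the sense strand in Tnfsf11 and Cited1, and TGACG, the half-site bound by CREB-type factors, in Calca.
Tnfsf11: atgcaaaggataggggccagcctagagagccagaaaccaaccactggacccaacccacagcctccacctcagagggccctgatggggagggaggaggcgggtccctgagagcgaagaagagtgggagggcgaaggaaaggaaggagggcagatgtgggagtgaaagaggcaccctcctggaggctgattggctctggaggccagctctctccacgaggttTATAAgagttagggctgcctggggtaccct
Calca: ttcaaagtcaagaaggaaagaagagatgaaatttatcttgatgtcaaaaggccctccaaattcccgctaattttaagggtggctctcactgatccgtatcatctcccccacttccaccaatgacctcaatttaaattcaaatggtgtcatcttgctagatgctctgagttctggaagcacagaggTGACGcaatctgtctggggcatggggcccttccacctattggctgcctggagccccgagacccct
Cited1: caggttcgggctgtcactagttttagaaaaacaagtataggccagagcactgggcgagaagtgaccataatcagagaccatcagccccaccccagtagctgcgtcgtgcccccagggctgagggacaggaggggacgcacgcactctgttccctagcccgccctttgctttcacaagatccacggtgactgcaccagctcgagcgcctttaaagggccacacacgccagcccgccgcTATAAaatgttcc
The TATAA of Tnfsf11 began 30 bases before the start and that of Cited1 13 bases before it. The TGACG of Calca began 65 bases before its start. The same half-site stood, on the opposite strand, 134 bases before the start of Tnfrsf11a and, on the sense strand, 33 bases before the third start of Cited1. A further TATAA stood 115 bases before the second start of Cited1. These 2 sets of letters were chosen after the windows were read. TATAA stood on the sense strand in 16% of 32851 mouse windows of this length, and TGACG on either strand in 17.8%. A further 4 motifs, which read the same on both strands, were searched in the wider window that also takes in 50 bases after the start. The STAT5 letters TTCNNNGAA stood in 8.3% of the same 32851 windows, the palindromic element of progesterone and glucocorticoid receptors in 0.475%, and the palindromic oestrogen receptor element in 0.07%. None of these was found in the windows of Tnfsf11, Tnfrsf11a, Calca or Cited1. The AP-2 letters GCCNNNGGC, found in 16.6% of windows, matched once, in the third window of Cited1. No matches overlapped. A missing match says only that these letters are not in these windows.

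The deviations of the 5 genes from wild type differed by stage. At day 6 of pregnancy Tnfsf11, Calca and Cited1 were lower in Null than in wild type, which makes 3 of 5 genes lower where 2.09% of 13367 genes were. In tissue RNA, fewer cells of a type and less RNA per cell cannot be told apart. Adipocyte markers moved with this difference, their sum being 34610 in Null against 16231 in wild type and 17549 to 22499 in the other columns. Adipoq, Car3 and Retn were called higher in Null (1.44, 1.64 and 1.50), 3 of 7. So were all 6 skeletal muscle markers (1.41 to 2.21) and all 4 mast cell markers (1.34 to 1.60), where 2.21% of all genes were higher. The muscle sum was 390 in Null, 88.2 in wild type, 24.6 to 90.2 in B, A and BB, and 5303 in AB. The mast cell sum was 40.9 in Null, 12.0 in wild type and 250 to 429 in B, A, BB and AB. The sum of 9 luminal markers was 1502 in Null against 1898 in wild type. The part of these cells and tissues in the result was not tested. In B, A and BB only Cited1 was lower and only Tnfrsf11b was higher. The background was 5.18% lower and 7.56% higher in B, 5.54% and 7.01% in A, and 3.6% and 5.12% in BB. In AB 3 genes were lower (Tnfsf11, Calca and Cited1; background 5.01%) and Tnfrsf11b was higher (background 6.78%).

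At parturition the same 3 genes stood on the other side of wild type. In Null and in B, Tnfsf11, Calca and Cited1 were higher, where 19.1% and 18.2% of 13061 genes were higher. Tnfrsf11a was lower in both, where 10.7% and 10.1% of genes were lower. In A, Calca and Cited1 were higher (background 17.3%) and Tnfrsf11a was lower (background 10%). Of the 5 genes only Tnfrsf11b was higher in BB (background 8.07%) and only Cited1 in AB (background 10.2%), and none was lower in either (background 5.37% and 5.45%). Between 13.4% and 29.8% of all genes were past 2-fold against wild type at this stage.

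**Figure D1:**
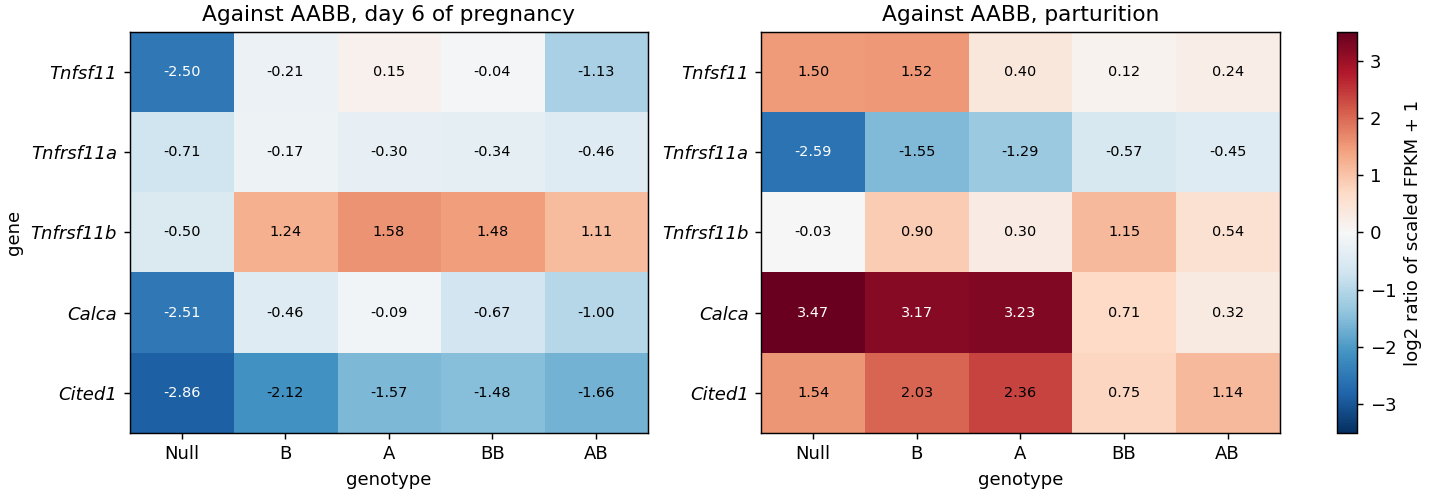
Log2 ratio of scaled FPKM + 1 against AABB (colour and printed value) for the 5 genes (rows) in each genotype (columns), at day 6 of pregnancy on the left and at parturition on the right. Calca and Cited1 are below wild type in all 5 genotypes on the left and above it in all 5 on the right.

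Tnfsf11, the ligand, stood at 7.54 in Null, 41.0 in B, 52.9 in A, 46.1 in BB, 21.2 in AB and 47.5 in AABB at day 6. Null was the lowest column and AB the next, while the other 4 lay within 41.0 and 52.9. The log2 ratio to wild type was -2.50 in Null, where 0.172% of all genes tested had a lower ratio. In AB it was -1.13, and in B, A and BB it lay between -0.21 and 0.15. The columns with a single allele of either gene were thus near wild type, and AB with 2 alleles was below BB with 2 (log2 ratio -1.09). B and A also held more B cell transcript, with the sum of 7 markers at 182 and 156 against 5.14 in wild type. Its part in the Tnfsf11 levels was not tested.

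Luminal markers were also lowest in the AB column. The geometric mean of Krt8, Krt18, Krt19 and Epcam, as deposited, was 145 in AB and 229 to 351 in the other columns. Expressed as a percentage of that mean, Tnfsf11 was 2.76% in Null, 16.3% in B, 22.7% in A, 19.3% in BB, 13.3% in AB and 14.1% in AABB. On this basis only Null stood apart at day 6, and the ratio of AB to wild type became -0.0766 when columns were scaled to these markers. AB also held skeletal muscle transcript, with the sum of 6 muscle markers at 5303 against 24.6 to 389.7 elsewhere. The part of tissue composition in the AB values was not tested beyond this rescaling.

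At parturition Tnfsf11 was low in every column. It stood at 1.99 in Null, 2.02 in B, 0.391 in A, 0.144 in BB, 0.249 in AB and 0.0553 in AABB. Null and B were the highest columns and wild type the lowest. The log2 ratio to wild type was 1.50 in Null and 1.52 in B, and 0.12 to 0.40 in the other 3. Because values are set near 0, no fold is given against wild type, and with a pseudocount of 0.1 the ratios of A and AB also passed 2-fold (1.66 and 1.17). A and B, the columns with 1 allele, differed by -1.12 (A lower than B), where 0.345% of genes were lower.

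T cells also make RANKL, so their markers were set beside it. The sum of 7 T cell markers at day 6 was 15.7 in Null, 27.8 in B, 12.3 in A, 12.6 in BB, 7.66 in AB and 8.25 in AABB. It was higher in Null than in wild type, with 1 of 7 markers under 1 FPKM in Null and 4 in wild type. At parturition the sums were 3.10 to 7.98, with 5 of 7 markers under 1 FPKM in 5 columns and all 7 in BB, and Null was the highest column. The part of these cells in the Tnfsf11 values of either stage was not tested.

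Tnfrsf11a, the receptor, was 2.57 in Null, 4.17 in B, 3.73 in A, 3.60 in BB, 3.23 in AB and 4.82 in AABB at day 6. These levels spanned less than 2-fold, with log2 ratios to wild type of -0.17 to -0.71. At parturition it stood at 3.00, 7.20, 8.85, 15.2, 16.6 and 23.1 in the same order. This is the order of functional allele number, with Null lowest, the single-allele columns next, the columns with 2 alleles above them and wild type highest. The log2 ratios to wild type were -2.59 in Null, -1.55 in B, -1.29 in A, -0.57 in BB and -0.45 in AB. B and A were above Null by 1.03 and 1.30. With no measure of spread, A and B (0.26) or AB and BB (0.12) cannot be ordered.

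Scaling bears on the receptor at parturition. Without scaling the ratio of A was -0.85, within 2-fold. When columns were scaled to the 4 luminal markers, BB and AB were also past 2-fold (-1.40 and -1.05), while B and A were no longer 2-fold above Null (0.29 and 0.54). As a percentage of those markers Tnfrsf11a was 1.29% in Null, 1.64% in B, 2.00% in A, 3.14% in BB, 4.08% in AB and 8.73% in AABB. The order from Null to wild type was thus the same on this scale.

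Tnfrsf11b, the decoy receptor, was highest in the 4 germline mutant columns at day 6. Null differs from these in allele number and in where Stat5 was lost, which cannot be told apart. It stood at 0.464 in Null, 3.91 in B, 5.18 in A, 4.76 in BB, 3.47 in AB and 1.07 in AABB. The 4 germline mutant columns were 3.24 to 4.83 times wild type in scaled FPKM, and their log2 ratios of FPKM + 1 were 1.24, 1.58, 1.48 and 1.11 for B, A, BB and AB. The AB value was 0.98 without scaling. Null was below wild type by a log2 ratio of -0.50, which became -1.05 with a pseudocount of 0.1. B and A exceeded Null by 1.75 and 2.08.

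Osteoprotegerin is also made by stromal cells. The summed fibroblast, basal epithelial and mast cell markers were higher in the same 4 columns, while those of other stromal cells were not. The sum of 7 fibroblast markers was 1838 in Null, 4482 in B, 4205 in A, 8910 in BB, 8169 in AB and 2098 in AABB. The sum of 7 basal epithelial markers was 755 to 876 in the 4 germline mutants, 493.6 in Null and 385 in wild type. Mast cell markers, 4 in all, summed to 250.2 to 429 in those columns, 40.9 in Null and 12.0 in wild type. Members of the fibroblast list were not uniform, with all 7 higher in BB and AB, while in B and A 5 were higher and Col1a1 stood at -0.88 and -1.02. Among the 4 germline columns the basal sum was 876 in A, 779 in B, 757 in BB and 755 in AB. Tnfrsf11b was also highest in A and lowest in AB, but stood higher in BB than in B. The fibroblast sum was highest in BB. The part of these cells in the Tnfrsf11b difference was not tested.

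At parturition Tnfrsf11b was 0.965 in Null, 2.72 in B, 1.46 in A, 3.43 in BB, 1.90 in AB and 1.00 in AABB. Null and wild type were alike, and BB and B were the highest columns. BB was past 2-fold (1.15) under the scaling used but not when scaled to luminal markers (0.59). B was within 2-fold at 0.90, and past it at 1.18 without scaling or at 1.36 with a pseudocount of 0.1. Fibroblast markers were higher than wild type in all 5 columns at this stage, at 1530 to 2304 against 384, Null included.

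FPKM is per length, so the ligand can be set against its decoy within a column, where scaling between columns does not enter. At day 6 Tnfsf11 was 16.3 times Tnfrsf11b in Null, 10.5 times in B, 10.2 times in A, 9.68 times in BB, 6.10 times in AB and 44.3 times in AABB. Wild type had the highest ratio and AB the lowest. The place of Null rests on a decoy level of 0.464. With 1 FPKM added to both genes the ratio was 5.72 in Null, 8.65 in B, 8.81 in A, 8.12 in BB, 4.88 in AB and 23.8 in AABB, so Null moved from the second highest column to the second lowest. The ligand was above the decoy in every column. At parturition the ratio was 2.06 in Null, 0.741 in B, 0.268 in A, 0.0418 in BB, 0.131 in AB and 0.0552 in AABB. Null was the only column in which the ligand still exceeded the decoy at that stage. Ligand levels of 0.0553 to 0.391 in A, BB, AB and AABB make their ratios uncertain in size and order. With 1 FPKM added the 6 ratios were 1.55, 0.805, 0.549, 0.261, 0.444 and 0.581. Relative to the receptor, Tnfsf11 was 2.94 times Tnfrsf11a in Null and 6.55 to 14.2 times elsewhere at day 6, and below it in every column at parturition.

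**Figure D2:**
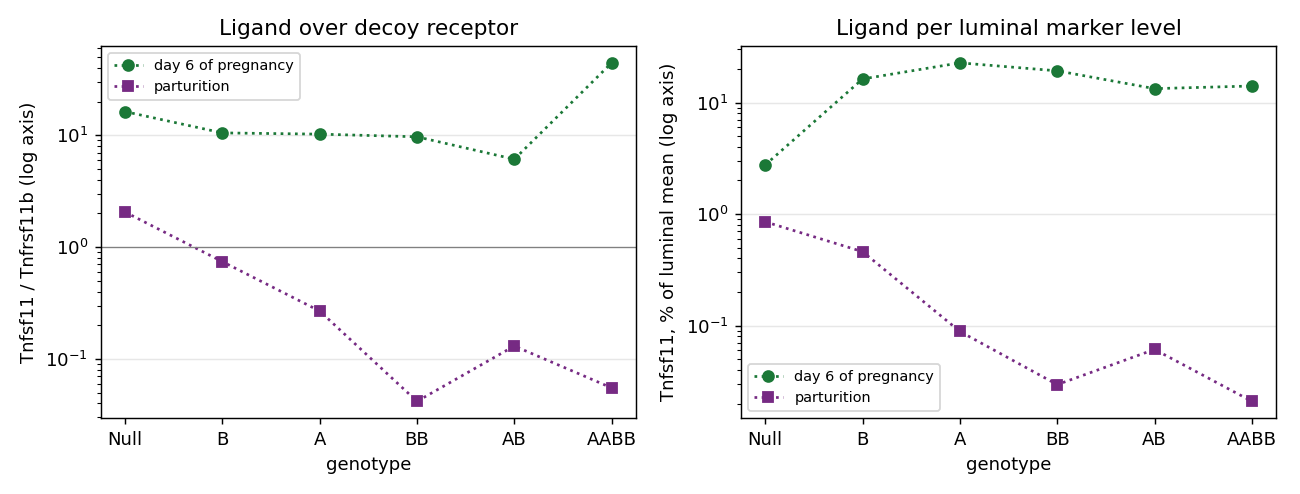
Left, Tnfsf11 over Tnfrsf11b within each genotype column (log axis, grey line at 1). Right, Tnfsf11 as a percentage of the geometric mean of 4 luminal markers (log axis). Circles are day 6 of pregnancy and squares parturition. At day 6 the left ratio runs from 6.10 in AB to 44.3 in AABB, and on the right Null is the lowest at 2.76%.

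Calca, the calcitonin and CGRP gene, was the most abundant of the 5 at day 6. It stood at 37.1 in Null, 157 in B, 204 in A, 135 in BB, 108 in AB and 216 in AABB. Null was 5.82-fold below wild type (log2 ratio -2.51, with 0.165% of genes lower). Ratios for the other columns were -0.46 in B, -0.09 in A and -0.67 in BB. AB was 2.01-fold below wild type, at the limit for a call, and its log2 ratio was 0.0789 when scaled to luminal markers. B and A were above Null by 2.05 and 2.42.

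At parturition Calca was 26.4 in Null, 21.3 in B, 22.2 in A, 3.03 in BB, 2.08 in AB and 1.47 in AABB. The columns formed a high set of 3 with 0 or 1 allele and a low set of 3 with 2 or 4 alleles. Markers of other tissue split the same columns. The sum of 6 skeletal muscle markers was 2789 in Null, 1719 in B and 1792 in A against 4.08 in BB, 7.31 in AB and 183 in AABB. That of 7 adipocyte markers was 26072, 15753 and 16706 against 8493, 6926 and 3958. Their part in the Calca difference was not tested. Log2 ratios to wild type were 3.47, 3.17 and 3.23 in the high set, and 0.71 and 0.32 in BB and AB. BB was 7.03-fold below B (-2.47), with 0.352% of genes lower. A and B differed by 0.06. Of all genes tested, 99.6% had a lower ratio than Calca in Null. Its neighbour and paralog Calcb, the second CGRP gene, was at most 0.791 FPKM in any column.

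Cited1 was the gene for which wild type stood most apart at day 6. It was 20.3 in Null, 34.8 in B, 51.4 in A, 54.5 in BB, 48.1 in AB and 154 in AABB. All 5 mutant columns were below wild type by at least 2.83-fold, with log2 ratios of -2.86, -2.12, -1.57, -1.48 and -1.66. In B, A and BB, where Tnfsf11 and Calca were within 2-fold of wild type, Cited1 was past it. With luminal scaling BB (-0.99) and AB (-0.59) came within 2-fold, while Null, B and A stayed past it. A was 1.30 above Null, and B 0.75.

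At parturition Cited1 was 27.8 in Null, 39.6 in B, 49.8 in A, 15.6 in BB, 20.9 in AB and 8.91 in AABB. The single-allele columns were highest and wild type lowest. Log2 ratios to wild type were 1.54 in Null, 2.03 in B, 2.36 in A, 0.75 in BB and 1.14 in AB. The BB value was 1.02 without scaling, and the AB value 0.57 with luminal scaling. BB was below B by -1.29.

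**Figure D3:**
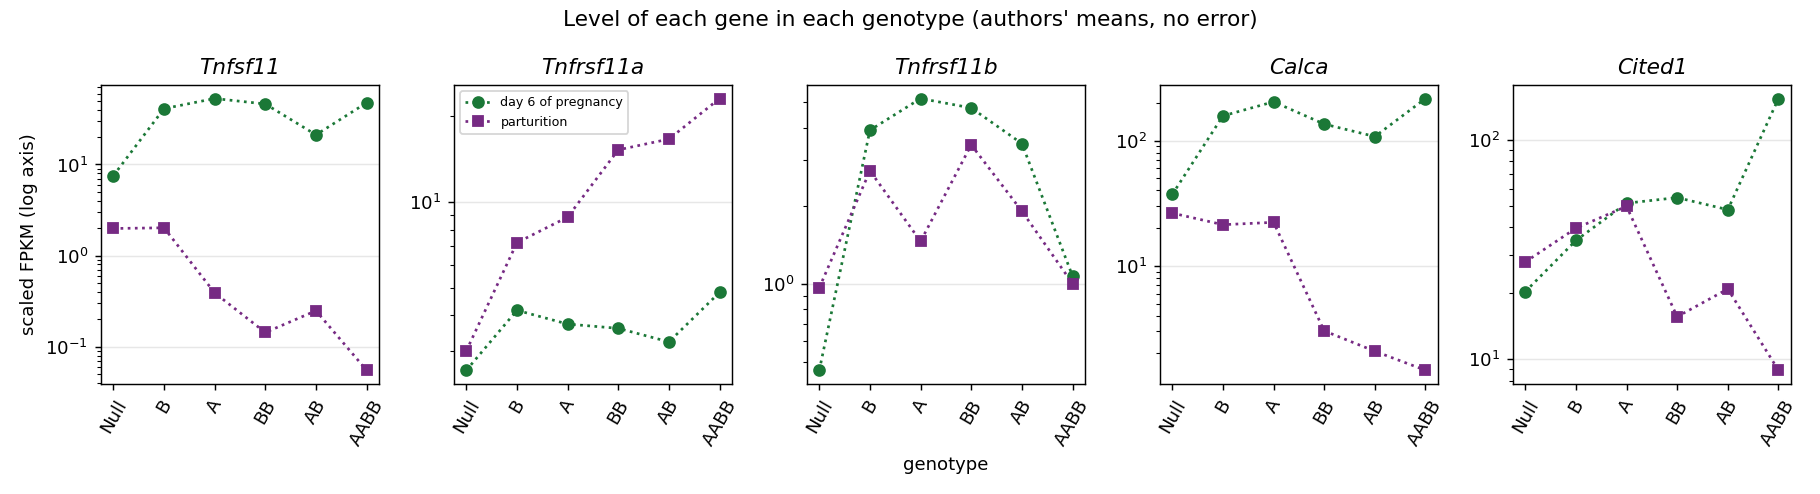
Scaled FPKM of each gene (log axis, a panel for each gene) in each genotype, with circles for day 6 of pregnancy and squares for parturition. Points are the authors' means without error, and dotted lines only join the columns of a stage. Tnfrsf11a climbs with allele number at parturition from 3.00 to 23.1, while Calca is 21.3 or more in Null, B and A and 3.03 or less in BB, AB and AABB.

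Comparisons among the mutants add the following. At day 6 none of the 5 genes differed 2-fold between A and B, where 0.382% of all genes did, nor between BB and B, where 6.46% did. AB against BB had 1 of 5 lower, Tnfsf11, where 0.988% of genes were lower. Against Null, 3 genes were higher in B (Tnfsf11, Tnfrsf11b and Calca; background 6.42%) and 4 in A (the same 3 and Cited1; background 6.08%). At parturition Tnfsf11 alone differed between A and B, and none did between AB and BB (background 1.78%). BB against B had 3 of 5 lower (Tnfsf11, Calca and Cited1; background 4.62%). Tnfrsf11a was higher than Null in B (background 2.72%) and in A (background 3.51%), and Tnfsf11 was lower than Null in A (log2 ratio -1.10; background 3.19%).

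The 2 tables were scaled apart, so stages are set side by side as deposited values or as each column's ratio to its own wild type. In AABB deposited Tnfsf11 was 49.4 at day 6 and 0.0439 at parturition, Calca 225 and 1.17, and Cited1 160 and 7.07. Tnfrsf11a went the other way, at 5.01 and 18.3. In Null, Calca was 35.9 and 29.1 and Cited1 19.6 and 30.7, so neither showed the wild-type difference between stages. Tnfsf11 in Null was 7.29 and 2.20, 3.32-fold higher at day 6. Cited1 in B (37.1 and 44.6) and in A (54.8 at both stages) also lacked the wild-type difference. Milk protein genes took 53.4% of the wild-type FPKM at parturition and 1.09% at day 6, against 0.405% and 0.0149% in Null, and FPKM is relative to all mapped fragments, these included. With 7 milk protein genes left out of each column's total, wild-type Calca was 205-fold and Cited1 24.1-fold higher at day 6 than at parturition.

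The ratio to wild type moved between stages by 5.98 for Calca in Null (log2, parturition minus day 6), by 4.40 for Cited1 and by 4.00 for Tnfsf11. In B the shifts were 3.63, 4.15 and 1.72, and in A 3.32, 3.92 and 0.25. BB and AB had shifts of 0.16 to 2.81 for these 3 genes. For Tnfrsf11a the shift was -1.88 in Null and 0.01 in AB. All of these shifts share their wild-type columns, and none was tested.

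Across the 12 columns, with each stage centred, the 5 genes had the following correlations, which are descriptions over means that share a scaling. Tnfsf11 and Calca had Pearson r of 0.97 at day 6 and 0.81 at parturition over 6 columns each. Calca and Cited1 had 0.76 and 0.86. Tnfrsf11a and Calca had 0.90 at day 6 and -0.90 at parturition, so receptor and hormone gene ran together at the first stage and opposite at the second. Tnfrsf11b was least related to Cited1 (Pearson r 0.07, Spearman rho -0.07 over 12 columns).

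Of 9176 genes that reached 5 FPKM in at least 2 columns at both stages, those most like each gene were named by Pearson r over the 12 columns. They were Tmpo (0.89), Dcp1a (0.84) and Slbp (0.84) for Tnfsf11. For Tnfrsf11a they were Tmed9 (0.98), Muc1 (0.98), a luminal mucin, and Plscr1 (0.97). Tnfrsf11b was nearest to Cnot1, Ptafr and Pbrm1 (0.95, 0.95 and 0.94). Calca was nearest to Slbp (0.97), the histone mRNA binding protein gene, then Mbp (0.91) and Mettl14 (0.90). Cited1 was nearest to Rassf10 (0.92), Kank4 (0.89) and Edn1 (0.89), the endothelin gene. The choice rested on the measure. By Spearman rho, Slbp stayed among the nearest 3 for Tnfsf11 and Calca, Cnot1 and Pbrm1 for Tnfrsf11b, and Rassf10 and Kank4 for Cited1. The other genes named did not, and Tmed9, Muc1 and Plscr1 ranked 53, 25 and 38 for Tnfrsf11a. Likeness of pattern need not mean likeness of size, since Slbp ranged only from 17.7 to 23.0 at day 6 and from 13.2 to 18.2 at parturition.

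RANK signals through TRAF adaptors, kinases and NF-κB subunits, and 26 such genes were measured. At day 6 none was higher than wild type in any genotype. The numbers lower were 2 in Null, 3 in B, 6 in A, 1 in BB and 2 in AB, beside 2.09%, 5.18%, 5.54%, 3.6% and 5.01% of all genes. These counts are small, with BB at the background and AB near it. List medians of -0.14 to 0.02 were set beside -0.02 to 0.04 for all genes. Nfkbia, an NF-κB inhibitor that NF-κB itself induces, was lower in all 5 genotypes, at 60.8 to 70.5 against 150 in wild type. Id2, a regulator needed for RANK-driven alveolar growth, was 26.9 in Null and 29.4 in AB against 69.4 in wild type, with 43.1 to 47.3 in B, A and BB. In A the other lower genes were Jun, Nfkb2, Rela, Relb and Src. Traf6 (-0.30 to 0.09), Chuk (-0.20 to 0.42), Ccnd1 (-0.59 to -0.06) and Lgr4 (-0.02 to 0.66) were within 2-fold throughout. These calls rested on the scaling. With luminal scaling 1 of the 26 was lower in Null and none in the other 4 genotypes, and 14 were higher in AB, where the median of all genes moved to 0.91.

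At parturition the list went both ways. In Null 2 of 26 genes were higher (background 19.1%; Jun 1.86 and Nfatc1 1.11) and 4 lower (background 10.7%; Id2 -2.60, Lgr4 -1.96, Src -1.41 and Chuk -1.02). Id2 was 56.0 in Null, 89.8 in B, 111 in A, 311 in BB, 138 in AB and 346 in AABB. Lgr4, which encodes another receptor for RANKL, was 9.46, 14.3, 13.9, 26.7, 22.7 and 39.7. Both were lowest in Null and highest in wild type, as was Tnfrsf11a. In B, A, BB and AB the list had 4, 3, 1 and 3 higher, beside 18.2%, 17.3%, 8.07% and 10.2% of all genes. It had 3, 3, 1 and 1 lower, beside 10.1%, 10%, 5.37% and 5.45%. These counts are near the background. With luminal scaling 9 were lower in B, 10 in A, 11 in BB and 7 in AB, where the medians of all genes lay between -0.71 and -0.49, and without scaling 8, 10, 11, 2 and 7 were higher in Null, B, A, BB and AB.

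Other TNF superfamily genes gave a comparison within the family. Of 17 further ligands 9 passed the filter at day 6. Only Ltb (2.78 in B, 2.17 in A) and Tnfsf13b (1.81 and 1.66) were higher, and Tnfsf13 was lower in Null (-1.02) and Tnf in BB and AB (-1.19 and -1.11). None of the 9 was lower than wild type by as much as Tnfsf11 in Null. Of 25 further receptors 22 passed, with 6 higher in B and 6 in A (background 7.56% and 7.01%), among them Tnfrsf13c (2.57 and 2.39) and Cd40 (2.00 and 1.54). B cell markers moved with these, their sum being 182 in B and 156 in A against 5.14 to 16.3 elsewhere, and the part of B cells was not tested. At parturition 7 ligands and 14 receptors passed. Tnfsf10 was higher in Null, B and A (1.62, 1.20 and 1.18), as was Tnfsf12 (1.34, 1.46 and 1.59), and Ltb in B and A (1.06 and 1.04). These ratios are of the size of those of Tnfsf11 in Null and B. Tnfsf13 was lower in Null, B and A (-2.50, -1.67 and -1.51). Among receptors Tnfrsf1b was higher in Null, B, A and AB (1.75, 2.10, 2.42 and 1.23).

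For Calca, the receptor side was examined through 10 genes, of which 6 passed at day 6 and 7 at parturition. The calcitonin receptor gene Calcr was at most 0.0511 FPKM in any column and did not pass. Calcrl, which forms the CGRP receptor with Ramp1, was 4.31 in Null, 13.3 in B, 13.6 in A, 12.5 in BB, 9.51 in AB and 2.96 in AABB at day 6. It was higher in the 4 germline mutants (1.41 to 1.89) and within 2-fold in Null (0.42). The endothelial marker sum at day 6 did not rise with Calcrl in B (140.5) and A (139.0) against 139.4 in wild type. That sum was above wild type in Null, BB and AB. At parturition Calcrl was higher in Null, B, A and BB (1.23 to 1.53), and Ramp2 in Null and A (1.42 and 1.12). The endothelial sum was then above wild type in all 5 genotypes. It was 211 in Null, 168 in B, 177 in A, 117 in BB and 174 in AB against 72.1. Calcrl did not follow its order, being within 2-fold in AB (0.88) but higher in BB (1.23). The part of endothelial cells was not tested. Ramp3 was lower in all 5 genotypes (-1.54 to -2.04). Ramp1 was lower in Null, B and A (-1.57, -1.29 and -1.30).

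For Cited1, the relatives and partners in a list of 8 all passed. Cited4 was lower than wild type in all 5 genotypes at day 6, at 35.5 in Null, 6.87 in B, 6.37 in A, 26.7 in BB and 18.6 in AB against 102. B and A were the lowest columns, unlike Cited1, which was lowest in Null. Among AP-2 genes Tcfap2c was lower in Null, B, A and AB (-1.01 to -1.40) and Tcfap2a in B, A and AB (-1.47 to -1.50). Ep300, Crebbp, Smad4 and Cited2 were within 2-fold. Of all genes 2.09%, 5.18%, 5.54%, 3.6% and 5.01% were lower in Null, B, A, BB and AB at this stage. With luminal scaling the list had 2 lower in Null, B and A and 1 in BB and AB. That scaling moves the ratios of all genes too, and the shares above are not for it. At parturition Cited4 was lower in Null and B (-2.26 and -1.72), Cited2 in Null (-1.73), and Tcfap2b was higher in Null, B, A and AB (1.35 to 2.43). Of all genes 10.7% and 10.1% were lower in Null and B. The shares higher in Null, B, A and AB were 19.1%, 18.2%, 17.3% and 10.2%.

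Markers of hormone-sensing epithelium, the cells known to make RANKL in this tissue, did not follow Tnfsf11, Calca and Cited1 in Null at day 6. Of 11 such genes 4 were higher (background 2.21%) and 1 lower (background 2.09%) in Null, and the median was 0.43 (2 and 2 without scaling, median 0.33). Foxa1, a luminal pioneer factor, was 44.1 in Null against 11.6 to 20.8 elsewhere. Esr1 was 14.7 to 18.2 in the 5 mutants against 6.60, Prlr 28.7 in Null against 12.7 in wild type, and Pgr 3.79 against 3.27. As a percentage of the geometric mean of Esr1, Pgr, Prlr and Foxa1, Tnfsf11 was 46.0% in Null, 269% in B, 430% in A, 299% in BB, 202% in AB and 546% in AABB. All 4 genes of this mean stood higher in Null than in wild type, and the mean as deposited was 15.9 against 9.04, which widens the Null deficit, while Wnt4 of the same list was lower (10.5 against 27.5). Wild type was highest and Null lowest on this measure, for Calca (226% against 2486%) and Cited1 (124% against 1774%) too.

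At parturition 6 of the 11 markers were higher than wild type in Null, 8 in B, 8 in A, 3 in BB and 5 in AB, and none was lower. Of all genes 19.1%, 18.2%, 17.3%, 8.07% and 10.2% were higher in these comparisons. Foxa1 was 46.9 in Null, 25.3 in B, 16.7 in A, 3.66 in BB, 4.39 in AB and 1.01 in AABB. Areg was listed at 0 in wild type and was 16.2 in B. The geometric mean of Esr1, Pgr, Prlr and Foxa1, as deposited, was 2.16 in wild type, 16.7 in Null, 19.6 in B and 6.31 in BB. Percentages of it in wild type thus rest on low levels and are uncertain in size. Set against the same 4 genes, Calca was 175% in Null, 122% in B, 269% in A, 47.2% in BB, 44.3% in AB and 53.9% in AABB. It kept its high and low sets of columns, though closer together. Cited1 was 184%, 227%, 601%, 244%, 445% and 327% in that order, so Null, B and BB were below wild type on this measure although above it in scaled FPKM. The part of cell composition in these differences was not tested.

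Among 8 further progesterone responders, a list that shares Wnt4 and Areg with the markers above and Ccnd1 with the RANK list, 3 were lower and none higher in Null at day 6 (background 2.09% and 2.21%). They were Rspo1 (3.49 against 105), Elf5 (32.9 against 113), the alveolar transcription factor, and Wnt4 (10.5 against 27.5). Areg, the amphiregulin gene, was 95.8 in Null against 101 in wild type. Rspo1 and Elf5 were lower in all 5 genotypes. In B, A, BB and AB the numbers higher were 1, 2, 2 and 2, beside 7.56%, 7.01%, 5.12% and 6.78% of all genes. The numbers lower were 4, 4, 3 and 3, beside 5.18%, 5.54%, 3.6% and 5.01%. At parturition 3 were higher (background 19.1%) and 1, Elf5, lower (background 10.7%) in Null, Elf5 at 66.9 against 1081.

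**Figure D4:**
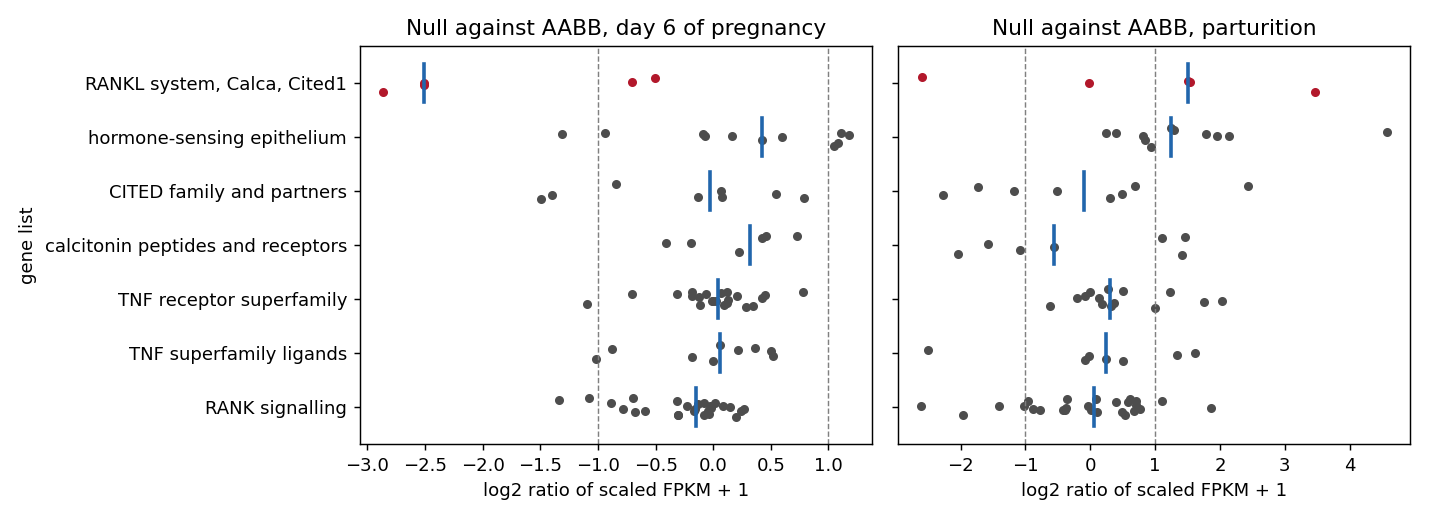
Log2 ratio of scaled FPKM + 1 for Null against AABB (horizontal axis) of each gene that passed the filter in the lists named on the vertical axis, at day 6 of pregnancy on the left and at parturition on the right. Blue bars are list medians and dashed lines mark 2-fold. The median of the RANKL system, Calca and Cited1 is -2.50 on the left, where that of hormone-sensing epithelium is 0.43.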

How the data were processed

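Libraries of poly(A) RNA from mammary tissue, extracted with TRIzol, were sequenced on an Illumina instrument, per the labels' protocols. The authors used CASAVA and TopHat with mm9 as genome build, as the submitters' processing notes list them without versions. The deposited values are FPKM per gene symbol in 2 tables of 6 columns, 1 for each genotype. The program that made them, its annotation, strand setting and filters are not given in the sources used here. Columns are means: of their values, 57.9% to 62.6% end in recurring decimals of the kind that division by 3 gives where 3 samples are listed and 0.0961% to 0.173% where 2 are. The labels speak of mice in pairs although 3 samples are listed at day 6. The planned limma tests need a value per sample and were not run, so differences are log2 ratios of means without error, and depth is unknown.

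Each column of a stage was divided by its median ratio to the across-column geometric mean, taken over genes of at least 1 FPKM in all 6 columns (11733 at day 6, 10864 at parturition). Genes of at least 1 FPKM in at least 2 columns were compared (13367 and 13061), with a pseudocount of 1, in 10 comparisons for each stage. Alternatives were a pseudocount of 0.1, no scaling, no filter, and scaling to 4 luminal markers. The 5 genes and all lists were chosen with earlier results of these data known. Named genes are the 5 genes, the 3 most like each, up to 5 of each list by absolute log2 ratio, and list members set in advance of this calculation. The Stat5b knockout genotype of the series is not analysed here. The calculation was tested on simulated data. Promoters came from RefSeq (GRCm38.p6), with a window for 4 of the 5 genes. Python 3.11.15, numpy 2.4.6, pandas 2.3.3 and matplotlib 3.10.9 were used.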

Additional observations from a re-analysis of the deposited data

How the results depend on the processing

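No paired analysis was possible because the tables hold 1 mean column for each genotype, with no replicate to block or leave out. For the same reason no difference has an error, and which neighbouring columns differ beyond their spread is unknown. Each of the 100 values (5 genes in 20 comparisons) was called higher, lower or within 2-fold. The call stayed the same in 94 with a pseudocount of 0.1, 96 without scaling, 100 without the filter and 87 with luminal scaling. A change of sign between values within 2-fold counts as the same call here.

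A pseudocount of 0.1 took 6 values past 2-fold: Tnfrsf11b at day 6 in Null against wild type (-1.05), and at parturition Tnfrsf11b in B against wild type (1.36) and Null (1.41), Tnfsf11 in A (1.66) and AB (1.17) against wild type, and Tnfrsf11a in BB against B (1.07). Without scaling, Tnfrsf11b in AB at day 6 (0.98) and Tnfrsf11a in A at parturition (-0.85) came within 2-fold of wild type, and Tnfrsf11b in B (1.18) and Cited1 in BB (1.02) passed it.

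Scaling to luminal markers turned Calca in AB against wild type at day 6 to 0.0789. It brought within 2-fold, at day 6, Tnfsf11 in AB against wild type (-0.0766) and BB (-0.52), and Cited1 in BB (-0.99) and AB (-0.59) against wild type. At parturition the same held for Tnfrsf11b in BB (0.59) and Cited1 in AB (0.57) against wild type, and Tnfrsf11a in B (0.29) and A (0.54) against Null. Past 2-fold were Tnfrsf11a in BB (-1.40) and AB (-1.05) against wild type, and Calca in B (-1.18) and A (-1.13) against Null. The cause of these moves was not tested.

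Of 40 counts of genes past 2-fold, 24 moved by over 1.5 times with a pseudocount of 0.1, 11 without scaling, 27 with luminal scaling and 0 without the filter. For Null against wild type at day 6 the split was 296 higher and 279 lower, against 436 and 487 with a pseudocount of 0.1, 226 and 339 without scaling and 536 and 150 with luminal scaling. At parturition it was 2489 and 1400, against 3198 and 1645, 3741 and 783, and 3183 and 1156.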
